A study of Mus musculus with 12 samples.

Results

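The mitochondrial ribosome (mitoribosome) makes the few proteins encoded by mitochondrial DNA, all of them parts of the oxidative phosphorylation machinery. Its proteins are encoded in the nucleus, made in the cytosol and imported, and by symbol they fall into a large-subunit family (*Mrpl*) and a small-subunit family (*Mrps*), each with proteins inherited from bacteria and proteins found only in mitochondria. These genes were followed here in mice lacking *Norad*, a long noncoding RNA that binds RNA-binding proteins of the Pumilio family, which repress mRNAs carrying a Pumilio response element (PRE, UGUANAUA) in the 3' untranslated region (UTR).

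Members were all rows of the brain and spleen expression tables whose gene symbol begins with *Mrpl* or *Mrps* followed by a digit, 77 of 24062 genes in all, of which 48 are *Mrpl* and 29 *Mrps* genes. Poly(A) RNA was measured in 12 libraries, 3 for each of 4 groups: *Norad*-/- brain, *Norad*+/+ brain, *Norad*-/- spleen and *Norad*+/+ spleen. All came from male C57BL/6 mice aged 10 weeks, with 3 mice to a genotype in each tissue. The *Norad*-/- animals carried a deletion of the whole locus made by CRISPR/Cas9 in all cells, in lines from independent founders, so no cell type was targeted. Values were FPKM, fragments per kilobase of transcript scaled to library size, so a level already divided by length. *Norad*, listed under the symbol 2900097C17Rik, had 0.00586, 0 and 0.0121 FPKM in *Norad*-/- brains, against 206, 259 and 635 FPKM in *Norad*+/+ brains. In spleen it had 0.00622, 0.0173 and 0 FPKM in *Norad*-/- mice, against 62.0, 42.9 and 56.3 FPKM in *Norad*+/+ mice, so every library matched its label.

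The tissues also matched their labels: markers of spleen cells summed to 0.682 to 3.79 FPKM in the brain libraries and to 1076 to 1402 FPKM in the spleen libraries. Some libraries stood apart. *Norad*-/- brain replicate 3 held 1333 FPKM of 5 pituitary markers, against at most 1.44 FPKM in the other brains. *Norad*+/+ spleen replicate 3 held 213 FPKM of 5 pancreas markers and 96.0 FPKM of 5 liver markers, against at most 9.55 and 0.492 FPKM in the other spleens. *Norad*+/+ brain replicate 3 had the lowest median rank correlation with the other brains (0.949). The 12 markers of red cell precursors summed to 2187, 2035 and 9569 FPKM in *Norad*-/- spleens, against 6160, 16394 and 14732 FPKM in *Norad*+/+ spleens. In bulk tissue, fewer cells of a type and less RNA per cell cannot be told apart.

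PREs were sought in each member's 3' UTR, taking the longest one annotated, since the mRNAs that Pumilio proteins bind carry them there. Of the 77 members, 11 held at least 1 TGTANATA match. Among members tested in brain the share was 14.7%, against 28.2% of all tested genes with an annotated 3' UTR, and in spleen it was 14.5%, against 25.7%. The members' 3' UTRs were also shorter, with a median of 497 bases in brain, against 1453 bases over all tested genes. The sites of 5 members described below are shown 5' to 3', with the PRE in capitals, from the GENCODE vM21 transcripts on GRCm38:
Mrpl17, chr7:105807606-105807629, minus strand: cctgtattTGTAAATAactgcctt
Mrpl17, chr7:105806467-105806490, minus strand: ggtcaataTGTATATAaattgcat
Mrpl35, chr6:71816040-71816063, minus strand: ggtctttgTGTACATAatgccctt
Mrpl32, chr13:14609881-14609904, minus strand: gttgaaaaTGTATATAtcctgtca
Mrps23, chr11:88210977-88211000, plus strand: tttgaaacTGTAAATAacaccagg
Mrpl15, chr1:4775769-4775792, minus strand: acctgtgcTGTACATActgagtga
The largest number of sites in a member was in *Mrpl39*, with 5 in 758 bases. Those at positions 639, 655, 667 and 689 lie in a stretch of TG and TA repeats, and only that at 733 lies outside it. A match is a run of letters only; binding was not measured here.

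Across the members, levels in *Norad*-/- brains lay close to those in *Norad*+/+ brains, and 1 of the 75 members tested passed the test. This was *Mrpl57*, which fell in *Norad*-/- brains. That is 1.33% of the members, against 0.0153% of the 13051 brain genes tested (limma on log2 FPKM, adjusted p of 0.05 or less), where 2 genes passed, *Norad* and *Mrpl57*. The median log2 fold change of the members was 0.02, the same to 2 decimals as that of all tested genes (0.02), and 35 of 75 members had a value below 0. The libraries were not alike. The members' median deviation from their own mean (log2 scale) was 0.15 in *Norad*-/- replicate 3 and 0.11 in *Norad*+/+ replicate 3. It was -0.12 to -0.05 in the other brains. Over all tested genes, the deviation fell with the longest annotated transcript in both (Spearman -0.369 and -0.110), against 0.166 to 0.194 in the other brains. At an unadjusted p under 0.05, 6 members were found (8%), against 6.62% of all genes. *Norad*-/- libraries lay wholly below *Norad*+/+ libraries for 4 members (5.33%), against 6.56% of all genes, and wholly above them for 5 (6.67%), against 10.6% of all genes.

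**Figure D1:**
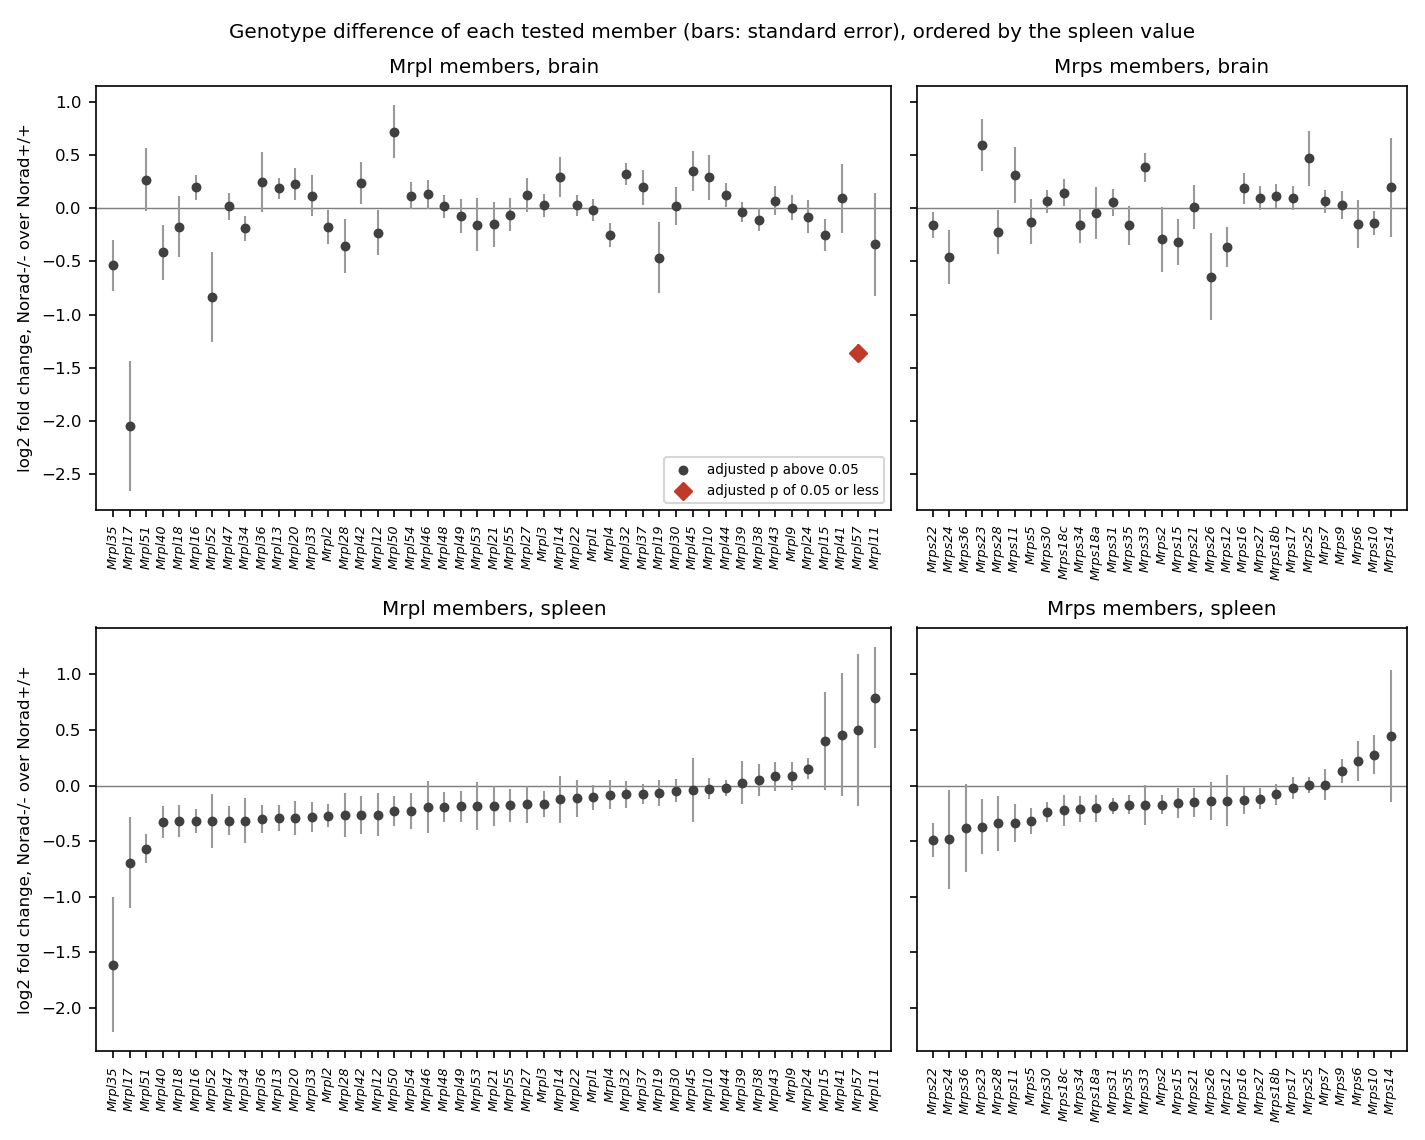
Log2 fold change, *Norad*-/- over *Norad*+/+, of each tested member (points) with its standard error (bars) in brain (top) and spleen (bottom), *Mrpl* genes left and *Mrps* genes right, each ordered by the spleen value. *Mrpl57* in brain is the single point with an adjusted p of 0.05 or less, and 61 of 76 spleen values lie below 0.

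*Mrpl57* (ENSMUSG00000021967, GRCm38 chr14:57826234-57829296, plus strand) encodes a small protein of the large subunit that has no bacterial counterpart. It had 5.16, 5.25 and 5.27 FPKM in *Norad*-/- brains, against 14.3, 13.2 and 13.4 FPKM in *Norad*+/+ brains. All libraries of each genotype lay within a narrow band, with a wide gap between the bands. The means were 5.23 ± 0.0607 FPKM in *Norad*-/- and 13.6 ± 0.610 FPKM in *Norad*+/+ brains (SD, n = 3 each), a log2 fold change of -1.36 ± 0.08 (SE, limma adjusted p = 0.0124). The 3' UTR of *Mrpl57*, 2471 bases long, held no TGTANATA and no TGTANATN.

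The same gene in spleen had low and high libraries within both genotypes. *Mrpl57* had 22.1, 17.1 and 6.00 FPKM in *Norad*-/- spleens, against 5.25, 6.87 and 22.0 FPKM in *Norad*+/+ spleens. Replicate 3 was the low library in *Norad*-/- spleen and the high library in *Norad*+/+ spleen, and the groups overlapped fully. The log2 fold change was 0.50 ± 0.68 (SE, limma adjusted p = 0.702). The genotype differences of the tissues differed by -1.86 ± 0.74 on the log2 scale (brain minus spleen, limma interaction, adjusted p = 0.294), which did not pass. The brain difference itself lost its call when 1 library was left out in 4 of 6 cases, with an adjusted p of 0.0819 to 0.241 without a *Norad*-/- brain and 0.0700 without *Norad*+/+ brain replicate 1, while the log2 fold change stayed between -1.39 and -1.33.

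**Figure D2:**
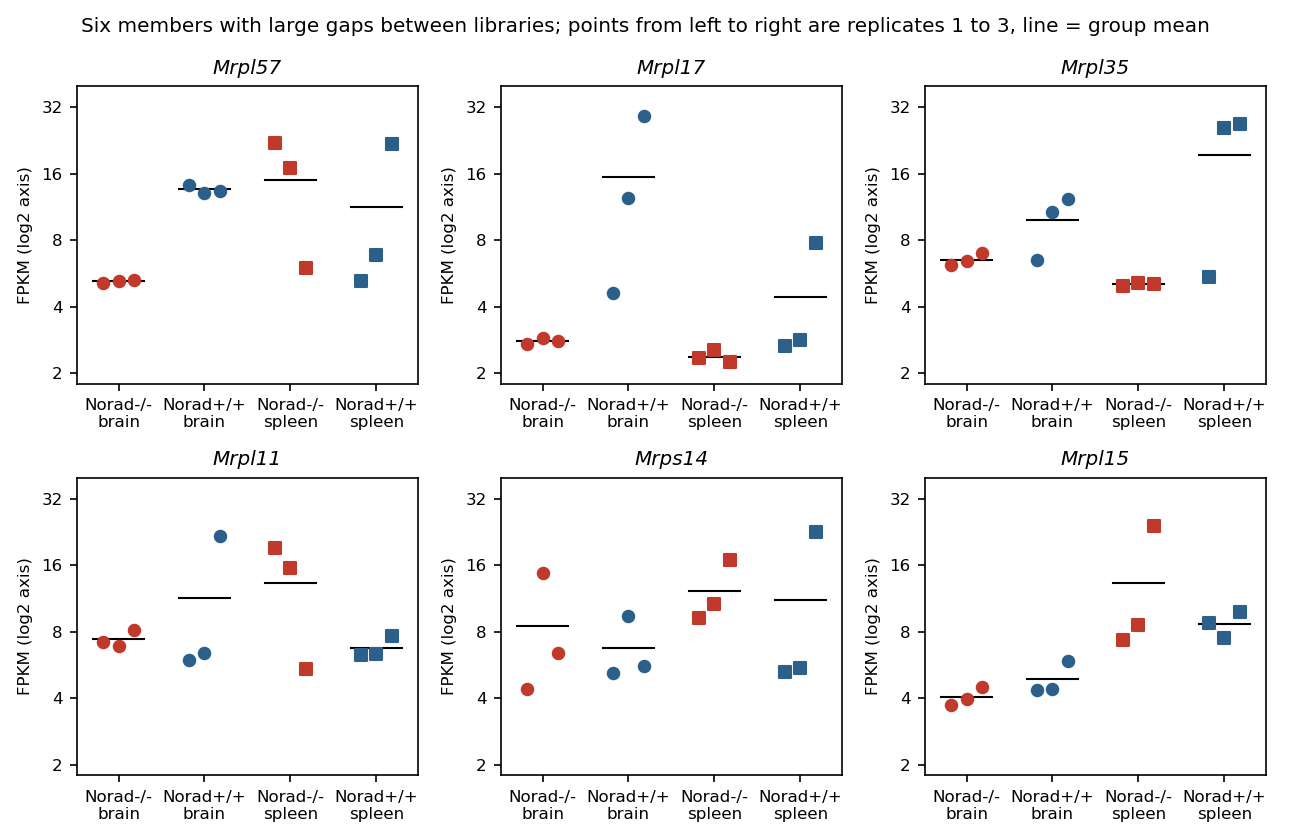
FPKM (log2 axis) of *Mrpl57*, *Mrpl17*, *Mrpl35*, *Mrpl11*, *Mrps14* and *Mrpl15* in each library, *Norad*-/- (red) left of *Norad*+/+ (blue), with brain as circles, spleen as squares and a line at each group mean. *Mrpl57* splits by genotype in brain (5.16 to 5.27 against 13.2 to 14.3 FPKM) but within both genotypes in spleen.

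Other members sat at a low and a high level within a genotype. In 15 of the 75 members tested in both tissues, the libraries of at least 1 group spanned 2-fold or more. The share was near or below that of all genes. In *Norad*-/- brains 1.33% of tested members spanned 2-fold, against 3.95% of all tested genes, and in *Norad*+/+ brains 12% did, against 10.9%. In spleen the shares were 3.95% of members in *Norad*-/- libraries, against 7.28% of all genes, and 10.5% of members in *Norad*+/+ libraries, against 9.39%. Among these 15 members, replicate 3 was the highest library in 7 of the 9 cases in *Norad*+/+ brain and in all 7 cases in *Norad*+/+ spleen. Over all tested genes, spanning 2-fold or not, *Norad*+/+ replicate 3 was the highest of all 6 libraries for 31.1% in brain and 37.3% in spleen. The member cases rank only the 3 *Norad*+/+ libraries, so these shares are not a like background for them. The share among all genes that spanned 2-fold is not given here.

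*Mrpl17*, the mitochondrial form of bacterial ribosomal protein L17 near the exit of the nascent peptide tunnel, carries both PREs shown first. It had 2.73, 2.90 and 2.81 FPKM in *Norad*-/- brains, against 4.63, 12.5 and 29.2 FPKM in *Norad*+/+ brains. The *Norad*-/- libraries were all below the lowest *Norad*+/+ library, and the *Norad*+/+ libraries spanned 6.32-fold. The log2 fold change of -2.05 ± 0.61 (SE) was the lowest among the members in brain but did not pass (limma adjusted p = 0.690). In spleen *Mrpl17* had 2.34, 2.56 and 2.25 FPKM in *Norad*-/- mice, against 2.67, 2.83 and 7.82 FPKM in *Norad*+/+ mice, again without overlap and again with replicate 3 far above the others (log2 fold change -0.69 ± 0.41, limma adjusted p = 0.366).

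*Mrpl35*, the L35 homolog, carries 1 PRE and split in *Norad*+/+ spleen. It had 4.98, 5.11 and 5.09 FPKM in *Norad*-/- spleens, against 5.46, 25.8 and 27.1 FPKM in *Norad*+/+ spleens. *Norad*+/+ replicate 1 lay beside the *Norad*-/- libraries and the other two far above them. The log2 fold change of -1.61 ± 0.61 (SE) did not pass (limma adjusted p = 0.215). Without *Norad*+/+ spleen replicate 1 it was -2.36 and passed (limma adjusted p = 0.00235). Leaving out the library that lay with the other genotype was bound to widen the gap. In the 18 other alternative settings the result was unchanged, with a log2 fold change of -1.62 to -0.97. In brain the values were 6.19, 6.45 and 7.01 FPKM in *Norad*-/- mice, against 6.51, 10.8 and 12.4 FPKM in *Norad*+/+ mice (log2 fold change -0.54 ± 0.24, limma adjusted p = 0.718), and the groups overlapped.

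*Mrpl11*, part of the L7/L12 stalk base where translation factors dock, had its high values in *Norad*-/- spleen. It had 19.1, 15.5 and 5.42 FPKM in *Norad*-/- spleens, against 6.28, 6.34 and 7.71 FPKM in *Norad*+/+ spleens (log2 fold change 0.79 ± 0.46, limma adjusted p = 0.360). Without *Norad*-/- spleen replicate 3, which was the lowest of all 6, the log2 fold change was 1.34 (limma adjusted p = 0.0454), a gap that this omission was bound to widen. With the red cell precursor markers as a covariate it was -0.25 (limma adjusted p = 0.969). In the 17 other alternative settings the result was unchanged, with 0.44 to 0.92. In brain it had 7.19, 6.94 and 8.17 FPKM in *Norad*-/- mice, against 5.95, 6.42 and 21.7 FPKM in *Norad*+/+ mice. *Mrpl15*, the L15 homolog, had 7.32, 8.603 and 24.1 FPKM in *Norad*-/- spleens, against 8.81, 7.52 and 9.84 FPKM in *Norad*+/+ spleens, and its higher mean in *Norad*-/- rested on replicate 3, without which the log2 fold change was -0.13, against 0.40 with all libraries (limma adjusted p = 0.628) and 1.47 with that covariate (limma adjusted p = 0.732). *Mrps14*, the S14 homolog of the small subunit, was picked after its values were seen. It had 4.40, 14.7 and 6.42 FPKM in *Norad*-/- brains, against 5.20, 9.48 and 5.59 FPKM in *Norad*+/+ brains. In spleen it had 9.28, 10.7 and 16.97 FPKM in *Norad*-/- mice, against 5.24, 5.46 and 22.7 FPKM in *Norad*+/+ mice. It thus spanned over 2-fold in *Norad*-/- brain and in *Norad*+/+ spleen, with overlapping genotypes.

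The annotated transcripts of these genes differ in length. The longest transcript had a median of 2877 bases in the 15 members that spanned 2-fold, against 1302 bases in the other 60, but across all 75 members the spread did not track it (Spearman -0.03, genes within the same libraries and not independent). For *Mrpl17* the annotation has 5 transcripts, the longest 7300 bases and the shortest coding one 380. FPKM depends on the length a read is assigned to, and the part of transcript assignment in these levels was not tested.

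Among the members with the smallest p in brain, several were higher in *Norad*-/- libraries, none past the test after adjustment. *Mrpl32*, a protein of the large subunit whose processing by a mitochondrial protease is known to gate ribosome assembly, had 30.6, 30.9 and 26.2 FPKM in *Norad*-/- brains, against 23.5, 22.3 and 24.2 FPKM in *Norad*+/+ brains, without overlap (log2 fold change 0.32 ± 0.10, limma adjusted p = 0.697). *Mrpl50*, specific to mitochondria, had 17.5, 32.4 and 30.8 FPKM in *Norad*-/- brains, against 16.4, 16.8 and 13.99 FPKM in *Norad*+/+ brains (log2 fold change 0.72 ± 0.25). Here *Norad*-/- replicate 1 lay close to the *Norad*+/+ libraries. *Mrps33* had 4.91, 5.92 and 6.63 FPKM in *Norad*-/- brains, against 4.07, 4.53 and 4.62 FPKM in *Norad*+/+ brains. *Mrps23* overlapped, with 36.9, 42.0 and 45.6 FPKM in *Norad*-/- brains, against 20.2, 39.0 and 26.0 FPKM in *Norad*+/+ brains. *Mrpl45*, which ties the ribosome to the inner membrane, also overlapped, with 11.6, 10.4 and 12.1 FPKM in *Norad*-/- brains, against 6.64, 10.7 and 9.78 FPKM in *Norad*+/+ brains.

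On the lower side in brain, *Mrpl4*, *Mrpl52* and *Mrps12* followed *Mrpl57*, *Mrpl17* and *Mrpl35*. *Mrps12*, the decoding-centre protein whose bacterial form is a site of streptomycin resistance mutations, had 20.4, 18.3 and 27.4 FPKM in *Norad*-/- brains, against 25.04, 26.5 and 33.0 FPKM in *Norad*+/+ brains. Its groups overlapped through *Norad*-/- replicate 3. *Mrpl52* had 6.60, 6.94 and 9.07 FPKM in *Norad*-/- brains, against 10.2, 8.73 and 26.8 FPKM in *Norad*+/+ brains, with replicate 3 alone far above the rest. *Mrpl4* had 4.35, 4.43 and 5.30 FPKM in *Norad*-/- brains, against 5.58, 5.29 and 5.88 FPKM in *Norad*+/+ brains. The adjusted p of these 3 genes was 0.718 (limma).

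In spleen most members had lower values in *Norad*-/- libraries, but none of the 76 tested passed (limma; the smallest adjusted p was 0.152), against 0.0323% of the 12397 spleen genes. The median log2 fold change was -0.17, against -0.02 for all tested genes, and 61 of 76 members (80.3%) were below 0, against 53.8% of all genes. At an unadjusted p under 0.05 (limma), 10 members were found (13.2%), against 21.0% of all genes, counting both directions. All 10 were lower in *Norad*-/-, whereas among all 12397 genes 1680 were lower and 920 higher. The *Norad*-/- libraries lay wholly below the *Norad*+/+ libraries for 16 members (21.1%), against 14.9% of all genes, and wholly above them for none, against 11.6% of all genes.

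*Norad*+/+ spleen replicate 3, the library with pancreas and liver markers, was the highest of the 6 for 62 of 76 members, against 37.3% of all tested genes. The members' median deviation from their own mean was 0.32 there on the log2 scale, against -0.12 and 0.02 in *Norad*+/+ replicates 1 and 2 and -0.10, -0.07 and -0.11 in the *Norad*-/- libraries. Over all tested genes, the deviation in replicate 3 also fell with the longest transcript (Spearman -0.237), against 0.007 to 0.220 in the other spleens. The members are short, with a median longest transcript of 1316 bases, against 3207 bases over genes tested in brain. Without *Norad*+/+ spleen replicate 3 the members' median log2 fold change was -0.05, with 45 of 76 below 0. All genes had -0.02, with 53.8% below 0, when all libraries were kept. Their values without that library are not given here, so what was left of the members' own lowering is not settled. The markers of red cell precursors (12 of 12) and of dividing cells (9 of 9) also had log2 fold changes below 0 in spleen, and those of dividing cells summed to 67.1, 64.8 and 183 FPKM in *Norad*-/- spleens, against 159, 303 and 426 FPKM in *Norad*+/+ spleens. With the red cell precursor markers as a covariate the median was -0.10, against -0.05 for all genes. Rescaling to TPM, which gives every library the same total, moved the median of all spleen genes to 0.10 and that of the members to -0.06. It shifts all genes of a library nearly alike on the log2 scale. The gap between the medians (-0.15 in both) therefore could hardly change, and its being kept is no check of it. The part of spleen cell makeup in the lower values was not tested beyond these values.

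**Figure D3:**
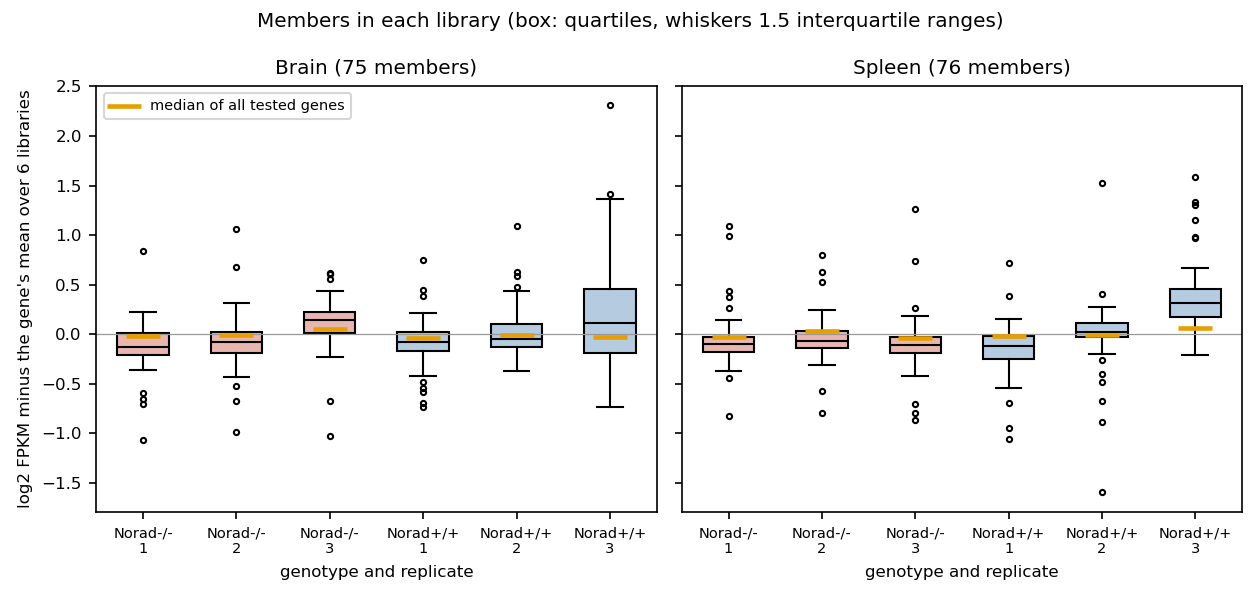
Deviation of each member's log2 FPKM from its mean over the 6 libraries of a tissue, by library, *Norad*-/- (red boxes) left of *Norad*+/+ (blue boxes), with the median of all tested genes as an orange bar. *Norad*+/+ spleen replicate 3 has a member median of 0.32, above the 5 other spleens.

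*Mrpl51*, a large-subunit protein specific to mitochondria, had the smallest p among the members in spleen. It had 16.5, 16.04 and 16.4 FPKM in *Norad*-/- spleens, against 20.4, 24.1 and 28.7 FPKM in *Norad*+/+ spleens, means of 16.3 ± 0.224 and 24.4 ± 4.16 FPKM (SD, n = 3 each). The *Norad*-/- libraries were nearly equal and all lay below the lowest *Norad*+/+ library, but the log2 fold change of -0.57 ± 0.13 (SE) did not pass (limma adjusted p = 0.152). In brain the same gene overlapped between genotypes, with 12.9, 14.2 and 21.0 FPKM in *Norad*-/- mice, against 8.75, 14.7 and 16.9 FPKM in *Norad*+/+ mice.

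The next members in spleen by p, with *Mrpl35* described above, also had no overlap. Their *Norad*-/- libraries spanned less than their *Norad*+/+ libraries. The margin was narrow in *Mrpl16* (1.16-fold against 1.23-fold) and *Mrps30* (1.10-fold against 1.15-fold). *Mrps22*, a small-subunit protein mutated in inherited mitochondrial disease in humans, had 8.75, 8.19 and 8.77 FPKM in *Norad*-/- spleens, against 10.0, 11.6 and 15.1 FPKM in *Norad*+/+ spleens (log2 fold change -0.49 ± 0.15, limma adjusted p = 0.187). *Mrpl16* had 12.9, 13.7 and 11.8 FPKM in *Norad*-/- spleens, against 14.2, 16.3 and 17.5 FPKM in *Norad*+/+ spleens. *Mrps5*, the S5 homolog, had 8.26, 8.78 and 8.11 FPKM in *Norad*-/- spleens, against 9.25, 10.2 and 12.2 FPKM in *Norad*+/+ spleens. *Mrps30*, which despite its symbol sits in the large subunit, had 13.1, 13.0 and 14.3 FPKM in *Norad*-/- spleens, against 15.2, 15.1 and 17.4 FPKM in *Norad*+/+ spleens. In each of these genes the highest library was *Norad*+/+ replicate 3.

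Values above 0 in spleen were few and mostly small apart from *Mrpl11*, *Mrpl15*, *Mrpl41*, *Mrpl57* and *Mrps14*. *Mrpl24*, the L24 homolog at the tunnel exit and the most abundant member in spleen, had 96.3, 95.2 and 88.8 FPKM in *Norad*-/- spleens, against 75.1, 89.3 and 88.7 FPKM in *Norad*+/+ spleens (log2 fold change 0.15 ± 0.10, limma adjusted p = 0.397). *Mrps6*, *Mrps9* and *Mrps10* had log2 fold changes of 0.22, 0.13 and 0.28, all with overlapping groups. *Mrps6* also overlaps *Slc5a3* on the same strand, so reads of the pair may be shared.

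By role, no group of large- or small-subunit proteins had a passing member other than *Mrpl57*. In brain the 29 tested large-subunit proteins shared with bacteria had a median log2 fold change of -0.01 and the 20 specific to mitochondria one of 0.07. The 16 small-subunit proteins shared with bacteria had -0.06 and the 10 specific to mitochondria 0.08. In spleen the medians were -0.18, -0.19, -0.14 and -0.17 in the same order, with 25 of 29, 15 of 20, 11 of 16 and 9 of 10 values below 0. By these lists, both inherited and mitochondria-specific proteins were thus spread about 0 in brain and mostly below it in spleen. The lists counted *Mrps18a* and *Mrps18b* as specific to mitochondria and *Mrps18c* as shared, although all are variants of a bacterial protein.

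The large-subunit stalk proteins (*Mrpl10*, *Mrpl11*, *Mrpl12*, *Mrpl53* and *Mrpl54*) had a median of -0.15 in brain and -0.18 in spleen. *Mrpl12*, the stalk protein that in human cells also binds the mitochondrial RNA polymerase, had 11.7, 11.998 and 14.3 FPKM in *Norad*-/- brains, against 12.2, 13.2 and 20.3 FPKM in *Norad*+/+ brains. It had 13.9, 15.3 and 15.4 FPKM in *Norad*-/- spleens, against 13.2, 18.8 and 22.6 FPKM in *Norad*+/+ spleens, so that the groups overlapped in both tissues. The 5 proteins of the central protuberance had medians of -0.11 in brain and -0.19 in spleen, and the 7 tested at the tunnel exit 0.02 and -0.04. *Mrpl44*, a large-subunit protein mutated in human infantile cardiomyopathy, was among the steadiest, with 10.6, 11.0 and 10.8 FPKM in *Norad*-/- spleens, against 10.7, 10.9 and 11.4 FPKM in *Norad*+/+ spleens.

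The S18 paralogs are 3 genes for variants of a single bacterial protein. *Mrps18a* (in the large subunit) had log2 fold changes of -0.04 in brain and -0.20 in spleen, *Mrps18b* 0.12 and -0.08, and *Mrps18c* 0.15 and -0.22. None passed (limma adjusted p of 0.362 or more). *Mrps18a* was the highest of the 3 in brain, at 20.05 ± 4.17 FPKM in *Norad*-/- and 21.0 ± 6.63 FPKM in *Norad*+/+ mice, against 6.84 ± 0.556 and 6.31 ± 0.577 FPKM for *Mrps18b* and 8.56 ± 1.11 and 7.69 ± 0.694 FPKM for *Mrps18c* (SD, n = 3 each).

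The genotype differences of the tissues were also set against each other in a single fit. None of the 75 members in it passed (limma interaction; the smallest adjusted p was 0.241), against 0.0191% of 10481 genes, and 9 had an unadjusted p under 0.05 (12%), against 14.3% of all genes. *Mrpl13* had the smallest p. It had 20.6, 20.1 and 23.3 FPKM in *Norad*-/- brains, against 18.2, 19.1 and 18.7 FPKM in *Norad*+/+ brains, and 25.2, 22.3 and 23.0 FPKM in *Norad*-/- spleens, against 27.2, 26.4 and 33.3 FPKM in *Norad*+/+ spleens. The groups did not overlap in either tissue and lay in opposite order. *Mrpl50* (0.95 ± 0.30), *Mrpl16* (0.52 ± 0.16) and *Mrps23* (0.96 ± 0.37) followed, as the brain minus spleen difference in log2 fold change with its SE.

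The members differed far more from each other than between genotypes. Tested members ranged in mean level between 1.46 and 56.8 FPKM in brain (median 12.4) and between 1.02 and 88.9 FPKM in spleen (median 16.2). In brain the highest were *Mrpl41*, *Mrpl42*, *Mrps21* and *Mrpl20*, at 56.8, 51.0, 40.4 and 39.5 FPKM over 6 libraries. *Mrpl41* itself ran between 52.7 and 60.1 FPKM in *Norad*-/- brains and between 37.6 and 90.03 FPKM in *Norad*+/+ brains, so these neighbours in the order did not differ beyond their spread. The lowest tested in brain were *Mrps10* (1.46), *Mrpl1* (4.27), *Mrpl15* (4.48) and *Mrps24* (4.95 FPKM). In spleen the highest were *Mrpl24*, *Mrpl42*, *Mrpl32* and *Mrps21*, at 88.9, 56.4, 51.9 and 50.9 FPKM, and the lowest *Mrps36*, *Mrps10*, *Mrpl17* and *Mrps33*, at 1.02, 1.69, 3.41 and 3.75 FPKM. The libraries of *Mrpl24*, at 75.1 to 96.3 FPKM, overlapped those of *Mrpl42*, at 46.8 to 78.4 FPKM, through the highest *Mrpl42* library alone.

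The members that failed the level filter in a tissue were low in both. *Mrpl23*, the L23 homolog at the tunnel exit, was between 0.0310 and 0.317 FPKM in the 12 libraries, although the protein is part of the ribosome core. Only uniquely mapped reads were kept, and the part of mapping or annotation in these low values was not tested. *Mrps36*, now known as a subunit of the alpha-ketoglutarate dehydrogenase complex and not of the ribosome, had means of 0.856 ± 0.265 FPKM in *Norad*-/- and 0.997 ± 0.178 FPKM in *Norad*+/+ brains (SD, n = 3 each) and was tested in spleen only.

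Levels in *Norad*+/+ brain and spleen were alike in order (Spearman 0.73 across 75 members, which share the same libraries). The median ratio, brain over spleen, was 0.779, against 0.808 for all genes tested in both tissues. *Norad*+/+ brains lay wholly below *Norad*+/+ spleens for 29 of 75 members (38.7%), against 46.7% of 10481 genes tested in both tissues, and wholly above them for 3 (4%), against 29.9% of genes. The smallest ratios belonged to *Mrpl33* (0.317), *Mrps16* (0.351), *Mrpl24* (0.369) and *Mrpl54* (0.413), and the largest to *Mrpl17* (3.48), *Mrpl41* (1.87), *Mrpl11* (1.68) and *Mrps6* (1.53). *Mrpl17*, *Mrpl41* and *Mrpl11* are among the members whose libraries split within a group, and the *Norad*-/- ratio of *Mrpl17* was 1.18. The tables of the tissues were made separately, so no test was run on these ratios.

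**Figure D4:**
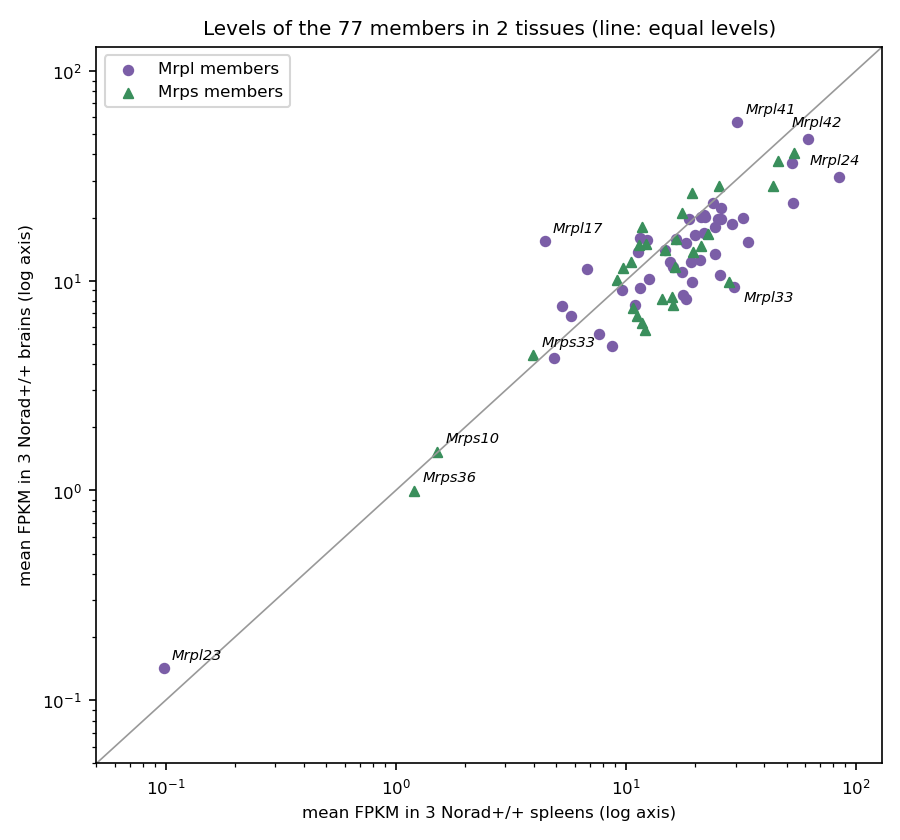
Mean FPKM of the 77 members in 3 *Norad*+/+ spleens (x axis) and 3 *Norad*+/+ brains (y axis), both log axes, with *Mrpl* members as circles, *Mrps* members as triangles and a line at equal levels. *Mrpl23* lies far below the rest, and *Mrpl17* has the largest brain to spleen ratio (3.48).

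Members with a PRE did not stand apart as a group. The median log2 fold change of the 11 was -0.03 in brain, against 0.02 for the members without, and -0.13 in spleen, against -0.18. Values in brain ran between -2.05 (*Mrpl17*) and 0.59 (*Mrps23*), with 6 of 11 below 0, and *Mrps35*, with 3 sites, had -0.16 in brain and -0.17 in spleen. *Mrpl39*, with 5 sites, most of them in a repeat, had -0.03 and 0.03. Their 3' UTRs had a median of 2302 bases, against 403 bases in the tested brain members without a PRE.

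The upstream regions shared sequence features too. In the 300 bases around the start site in RefSeq's GRCm38.p6 table, 68 members matched, and 25 of them (36.8%) held the ETS core CCGGAAG on either strand, against 9.93% of 27025 genes. The YY1 core AAGATGGC was found in 12 (17.6%), also on either strand, against 3.19%. The 27025 genes were all those with a region there, whether or not tested in these tissues. They were not matched to the members in level or base makeup, so the higher shares may not be particular to this family. None of these motifs contains another. A match is a description and not a bound site. *Mrpl57* was among those with the ETS core.

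Other genes of mitochondrial translation held no passing gene either. None of the 6 mitoribosome proteins under other names, 19 assembly factors, 14 tested translation factors or 17 mitochondrial tRNA synthetases passed in either tissue (limma adjusted p of 0.140 or more). At an unadjusted p under 0.05 the lists had 0, 1, 0 and 1 genes in brain and 1, 5, 3 and 2 in spleen, beside the 6.62% of brain genes and 21.0% of spleen genes that reached it. Of the 11 in spleen, 1 assembly factor (*Mettl17*) was higher in *Norad*-/- and the others lower. The median log2 fold changes of the lists were 0.06, -0.02, 0.01 and 0.00 in brain and -0.29, -0.15, -0.14 and -0.16 in spleen. *Ddx28*, an RNA helicase of large-subunit assembly, had the smallest p of these in spleen, with 4.50, 4.01 and 4.13 FPKM in *Norad*-/- mice, against 5.99, 8.15 and 7.74 FPKM in *Norad*+/+ mice (log2 fold change -0.77 ± 0.14, limma adjusted p = 0.140). *Gfm1*, the mitochondrial elongation factor G, had 14.7, 14.6 and 14.6 FPKM in *Norad*-/- spleens, against 17.9, 18.2 and 19.9 FPKM in *Norad*+/+ spleens (log2 fold change -0.34 ± 0.08, limma adjusted p = 0.152). Both lay lower in *Norad*-/- without overlap, as *Mrpl51* did.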

How the data were processed

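RNA from brain and spleen was made into poly(A) libraries with a stranded kit and read as single 75-base reads. Per the labels and methods, the authors aligned reads to GRCm38 (mm10) with TopHat2 2.0.12, kept unique reads, and deposited FPKM per gene from StringTie 1.2.2. The annotation behind the FPKM was not given in the sources used here, nor whether counting used strand. The 35 members that overlap a gene on the other strand, and the 6 that overlap one on the same strand, are uncertain for this reason. FPKM change when reads are assigned to a transcript of another length. The authors' counts (featureCounts 1.4.6, edgeR 3.8.6) were not used here.

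In each tissue, genes averaging 1 FPKM or more across its 6 libraries were tested on log2(FPKM + 0.1), which understates changes of low genes, with limma 3.58.1 in R 4.3.3 (trended prior variance, Benjamini-Hochberg adjustment over all tested genes, two-sided). The interaction was fitted over 12 libraries. The test was checked on simulated data. Low values gave an estimated depth of 28300000 to 36650000 reads per library, with 47.9% to 52.6% of values up to 0.1 FPKM whole within 2%, too few for a count test. Symbols matched GENCODE vM21 for 23640 genes and all 77 members. Members and lists were chosen with earlier results of these data known. Named members were those called, the 6 smallest p in each direction per tissue, the 4 highest and lowest levels and tissue ratios, the 4 smallest interaction p, and 8 with known roles; of the other lists, up to 4 genes each. Within a tissue each library came from its own mouse. Whether a brain and a spleen shared a mouse was not stated, and the interaction fit treated the libraries as independent. Alternatives changed the pseudocount, filter, scaling, length and GC trends, prior variance, block, covariate and libraries.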

Additional observations from a re-analysis of the deposited data

Results flagged for a closer look

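*Mrpl13* lay wholly higher in *Norad*-/- than in *Norad*+/+ brains and wholly lower in *Norad*-/- than in *Norad*+/+ spleens. The difference in log2 fold change, brain minus spleen, was 0.48 ± 0.15 (SE, limma interaction, adjusted p = 0.241), which did not pass.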

How the results depend on the processing

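The count of members passing in brain (1) became 0 with a replicate block and ranged from 0 to 1 when a library was left out. In spleen the count (0) ranged from 0 to 1, the calls being *Mrpl11* and *Mrpl35*, and the interaction count stayed at 0 in every setting run. The replicate numbers are not stated to pair mice. Same-numbered libraries correlated in their deviations by 0.06, 0.07 and 0.11 in brain, where each library correlated best with its own number, and by 0.34, -0.15 and 0.29 in spleen, where this was not so. With the block the log2 fold change of *Mrpl57* in brain was -1.36 (limma adjusted p = 0.455). The limma adjusted p of *Mrpl57* was 0.00834 to 0.0478 under the other settings that kept all libraries, and 0.0413 without both brains numbered 3.

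With the red cell precursor covariate in spleen, the log2 fold changes of *Mrpl11*, *Mrpl57*, *Mrps10* and *Mrps9* were -0.25, -0.19, -0.0573 and -0.0011, while that of *Mrpl15* was 1.47, against 0.40 without the covariate. That of *Mrpl15* ranged from -0.13 (without *Norad*-/- spleen replicate 3) to 0.73 when a library was left out. None of these passed; the cause was not tested. The spleen member median ran from -0.26 to -0.05 and the brain median from -0.04 to 0.04 when a library was left out. With TGTANATN, 25 of the tested members held a site. With 3 libraries per group, an exact permutation of 1 gene cannot give a p below 0.1, and the depth per library limits low members such as *Mrps36*.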
